A study of Mus musculus with 4 samples.

Results

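Poly (ADP-ribose) polymerases (PARPs) and their partners in the repair of single-strand DNA breaks and damaged bases are represented here by 9 genes, Parp1, Parp2, Parp3, Parg, Xrcc1, Lig3, Polb, Apex1 and Tdp1, chosen by gene symbol from the 56748 genes of the count table. All 9 were found, and all 9 passed the filter on low counts that left 15167 genes for testing. RNA of lungs carrying 4T1 metastases was sequenced from female BALB/cJ mice, 2 libraries from mice given saline and 2 from mice given cmLumiOpto/PARPi. 4T1 is a mouse mammary tumour cell line used as a model of triple-negative breast cancer (TNBC), and the 4T1-FLuc cells were injected into the tail vein of mice 7 weeks old. Both groups carried these tumour cells, and treatment began once metastases were seen. The treated mice received cmLumiOpto, a mitochondrial light-gated channel and a luciferase under a cfos promoter, delivered by CD276 antibody-tagged exosome-associated AAV, with the luciferase substrate ViviRen, and in addition olaparib, an inhibitor of PARP, at 50 mg/kg. The effects of the vector, ViviRen and olaparib cannot be told apart in these libraries, since all were given together and a library of olaparib alone was not analysed here. The sample titles call the controls saline, as the study does, while their treatment field says PBS, and the labels describe the material as harvested tumour cells. The labels do not say from how many mice each library came, so the spread between the 2 libraries of a group may be partly technical.

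PARP1 and PARP2 bind breaks in DNA and build chains of ADP-ribose from NAD at the site, a signal that gathers repair proteins. PARP3 attaches mainly single ADP-ribose units, and PARG takes the chains apart. In base excision repair a glycosylase removes the damaged base, APE1 (encoded by Apex1) cuts the backbone, DNA polymerase beta (Polb) fills the gap, and DNA ligase III (Lig3), held by the scaffold XRCC1, closes the nick. TDP1 clears topoisomerase I that has become stuck to a broken end. Olaparib occupies the NAD pocket of PARP1 and PARP2 and holds the enzymes on DNA.

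The starts of most of these genes share a feature of position. In the count table, 6 of the 9 genes (66.7%) had the start of a gene on the opposite strand within 200 bases of their own start, while 14.3% of the 13442 tested protein-coding genes did. The 200-base window was chosen after the distances had been seen. The pairs were Parp2 with Rpph1 and Ccnb1ip1, Parg with Timm23, Xrcc1 with Pinlyp, Lig3 with the non-coding Gm11423, Apex1 with Osgep, and Tdp1 with Efcab11. Neighbours were taken whether or not they were expressed. Rpph1 had 0 counts in every library, Pinlyp 0 to 3 and Gm11423 16 to 22, while Timm23 had 697 to 872 and Osgep 439 to 632. The distance between starts was 74 bases for Parp2 and Rpph1, 51 bases for Parg and Timm23, 171 bases for Xrcc1 and Pinlyp, 9 bases for Lig3 and Gm11423, 75 bases for Apex1 and Osgep, and 78 bases for Tdp1 and Efcab11. The lines that follow give, for 5 of these genes, the bases nearest the RefSeq start that no exon annotated in GENCODE M21 covers, and for Parp1, which had no such neighbour, the 250 bases before its start. For Xrcc1 such bases, not shown, ran the full 250 before the start, with no exon of another gene in its window. The lines are given for the motifs they hold, 0 in those of Parp2 and Parg, and for their lengths. They rest on the exons of another annotation and build than the distances above, so their lengths need not match those distances. They come from RefSeq promoter windows of build GRCm38.p6, 5′ to 3′ on the strand of the repair gene. Capitals mark matches on either strand to a GC box (GGGCGG), to an E-box (CACGTG), to the CCAAT box, or to the palindromic core of the NRF1 motif, which is the first run of capitals in the Tdp1 line.
Parp1, chr1:180568641-180568890, + strand: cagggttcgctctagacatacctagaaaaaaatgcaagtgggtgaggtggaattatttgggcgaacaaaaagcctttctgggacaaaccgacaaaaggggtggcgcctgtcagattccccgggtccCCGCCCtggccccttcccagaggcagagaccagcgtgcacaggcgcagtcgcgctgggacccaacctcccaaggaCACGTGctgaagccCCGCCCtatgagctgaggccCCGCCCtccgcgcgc
Parp2, chr14:50807768-50807840, + strand: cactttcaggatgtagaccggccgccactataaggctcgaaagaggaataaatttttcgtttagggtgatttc
Parg, chr14:32201899-32201948, + strand: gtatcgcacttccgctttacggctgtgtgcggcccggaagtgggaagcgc
Lig3, chr11:82781043-82781107, + strand: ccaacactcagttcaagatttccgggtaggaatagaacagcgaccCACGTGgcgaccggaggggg
Apex1, chr14:50924894-50924948, + strand: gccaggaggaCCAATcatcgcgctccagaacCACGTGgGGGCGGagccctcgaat
Tdp1, chr12:99884440-99884516, + strand: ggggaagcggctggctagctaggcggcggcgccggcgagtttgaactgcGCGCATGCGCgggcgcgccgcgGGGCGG

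RefSeq windows of 300 bases, 250 before and 50 after the start, were found for 8 of the 9 genes, Polb being the exception. A GC box was in 5 of the 8 windows, and in 35.9% of all 27025 genes with a window. Parp1 held the most, with 4. The E-box, a site read by MYC, USF and related factors, was in 4 of the 8 windows, those of Parp1, Parp2, Lig3 and Apex1, and in 7.24% of all windows. The Apex1 window held 3 E-boxes, and 0.0888% of all windows held that many or more. The NRF1 core was in the Tdp1 window alone among the 8, and in 0.977% of all windows. The CCAAT box was in 3 of the 8, those of Parp3, Xrcc1 and Apex1, and in 37.9% of all windows. A TATA box (TATAAA) was in 0 of the 8 windows and in 14.2% of all windows, and a cyclic AMP response element (TGACGTCA) was in 0 of the 8 and in 1.88% of all windows. All windows here are those of every gene with one, tested or not, unlike the tested protein-coding genes set beside the starts above. Base composition was not matched, so these shares do not show that the motifs are particular to repair genes. A match of letters is no measure of binding in these lungs.

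Library totals were 15263375 to 16755228 counts, so 3 counts, the limit that a count of 0 allows, corresponded to 0.179 to 0.197 CPM (counts scaled to a common library size by total and TMM factor). All 9 genes lay far above it, between 236 and 2037 counts in every library. Per-length levels are CPM per kilobase of the gene length given with the table (RPKM). The floor covers counting error only, and the 95% intervals of fold changes come from the edgeR fit and include the spread between libraries. Each difference was put to the quasi-likelihood test of edgeR over all 15167 genes with Benjamini-Hochberg adjustment. With 2 libraries against 2, an exact permutation test cannot give a two-sided p below 0.333. The libraries hold tumour and lung together. The 8 listed markers of mammary tumour epithelium, among them Krt8 and Epcam, had a summed level of 3011 and 3390 CPM after saline. After treatment it was 2692 and 3850 CPM. Krt8 alone had 1144 and 1560 CPM after saline and 998 and 1640 CPM after treatment. Of the 7 that were tested, 0 had an unadjusted p under 0.05. Reads of these genes from tumour and from lung epithelium cannot be told apart, so the sum is no measure of tumour content. At an unadjusted p under 0.05, 9.21% of all tested genes were higher and 12.0% lower (21.2% in either direction). Alveolar and airway markers stood higher after treatment, apart from Abca3 of the type 2 list (log2 fold change -0.33). Of 7 alveolar type 2 markers 6 had an unadjusted p under 0.05 and a higher level, with summed levels of 442 to 1682 CPM after saline and 2909 to 8210 CPM after treatment. All 6 airway markers did so too (83.4 to 1155 CPM and 3189 to 5705 CPM), as did 3 of 6 alveolar type 1 markers (223 to 376 CPM and 486 to 936 CPM). Of 6 endothelial markers 1 did, and the groups overlapped in the summed level (401 to 502 CPM and 396 to 717 CPM). Of 6 fibroblast markers 5 had an unadjusted p under 0.05 and a lower level (3504 to 5087 CPM and 1634 to 1841 CPM). Of 4 B cell markers 2 had an unadjusted p under 0.05 and a higher level. Their list summed to 1.29 to 4.52 CPM after saline and 7.58 to 10.5 CPM after treatment. Of 7 tested T and NK cell markers 0 had such a p, and all 7 log2 fold changes were above 0 (median 1.29). Of 6 neutrophil markers 0 had one, and all 6 were above 0 (median 0.40). Of 6 macrophage markers 1 had one and a higher level (Cd68) and 1 a lower (Mrc1). Among the markers listed at 0 in the second saline library were Krt5, Klrb1c and Ms4a1. The part of these shifts in the values that follow was not tested, and in bulk RNA fewer cells of a type and less RNA per cell cannot be told apart.

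The mRNA levels of the 9 genes were close to level between the groups, with Polb the one that moved most. None of the 9 genes passed an adjusted p of 0.05, nor did any of the 15167 tested genes (0.00%). DESeq2 called 0 of the 9 and 981 of all tested genes (6.47%), and edgeR's likelihood ratio test 0 of the 9 and 865 of all (5.70%). At an unadjusted p under 0.05, 1 gene, Polb, was higher after cmLumiOpto/PARPi (9.21% of all tested genes were) and 0 were lower (12.0% of all, and 21.2% in either direction). The median log2 fold change of the 9 genes was -0.0029, between -0.38 for Lig3 and 0.66 for Polb, and the median of all tested genes was 0.02. For 2 genes, Xrcc1 and Polb, the treated values were both above the saline values (27.4% of all tested genes), and for 1 gene, Parp1, both were below (27.8% of all, and 55.2% in either direction). The groups overlapped in the other 6. Summed over the 9 genes, the level was 342 and 311 CPM after saline and 312 and 318 CPM after treatment.

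**Figure D1:**
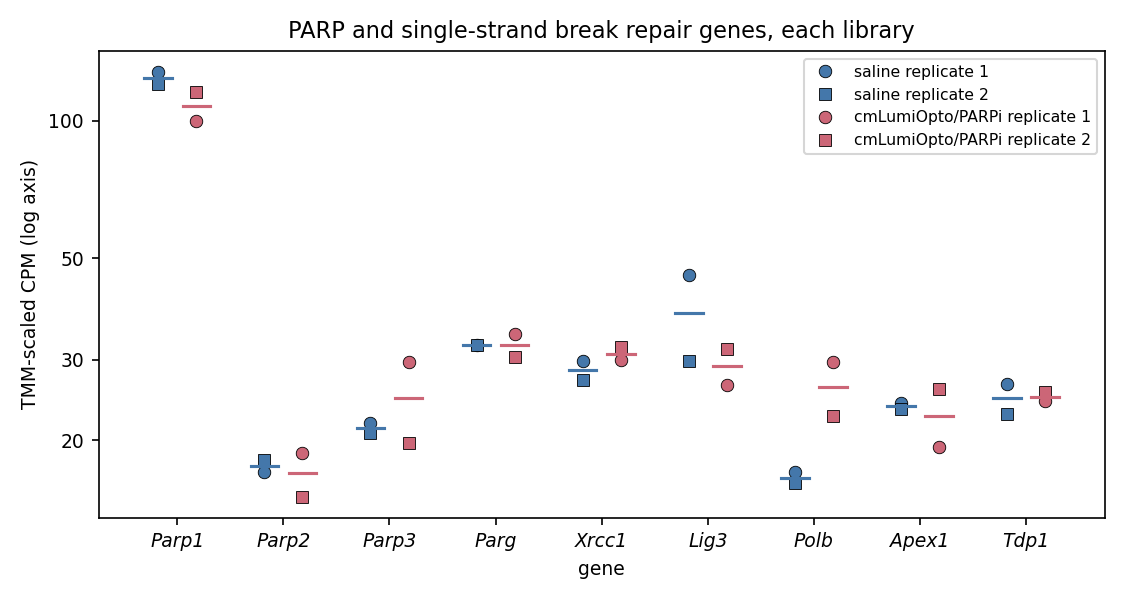
TMM-scaled CPM (log axis) of the 9 genes in each library, circles for replicate 1 and squares for replicate 2, with a line at each group mean of 2 libraries. Parp1 sits at 99.7 to 128 CPM and the other genes at 15.0 to 45.8 CPM, and the groups stand apart for Parp1, Xrcc1 and Polb.

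Parp1, the main olaparib target, is encoded on chromosome 1 from 180396489 to 180428819 (mm39, ENSMUSG00000026496). Its level was 128 and 120.3 CPM after saline, against 99.7 and 116 CPM after treatment. Both treated libraries were lower than both saline libraries, by a gap that was small beside the distance between the treated libraries themselves. The log2 fold change was -0.20 (standard error 0.14, 95% confidence interval -0.55 to 0.14, adjusted p = 0.429 from edgeR). Without the first treated library it was -0.10, and without the second it was -0.34. The level of Parp1 was thus 0.868 times that of saline, within an interval that spans 0. Over the 4 libraries, the tested protein-coding genes with the pattern most like that of Parp1 were Midn, Galnt10 and Casp9, at Euclidean distances of 0.0175, 0.0238 and 0.0259 between log2 CPM values centred on each gene's mean. With 4 libraries such closeness is a description only.

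Parp2, the second PARP that answers to DNA breaks, lies on chromosome 14 from 51045298 to 51058758 (ENSMUSG00000036023). Saline libraries had 17.0 and 18.1 CPM and treated libraries 18.8 and 15.0 CPM, so the treated pair enclosed the saline pair. Its log2 fold change was -0.05 (95% confidence interval -0.57 to 0.47, adjusted p = 0.904 from edgeR), with the sign turning to positive under upper-quartile factors and under library totals. Parp3, on chromosome 9 from 106347521 to 106354148 (ENSMUSG00000023249), was at 21.8 and 20.7 CPM after saline and at 29.6 and 19.7 CPM after treatment. The first treated library was the highest of the 4 and the second the lowest. This gave a log2 fold change of 0.22 (95% confidence interval -0.38 to 0.81, adjusted p = 0.638 from edgeR), and -0.11 without the first treated library. Parp3 shares 987 bases with Rrp9 on the other strand, and the sources used here do not say whether reads were counted by strand, so reads of the 2 genes may not be told apart. Rrp9 was at 36.7 and 37.4 CPM after saline and 42.4 and 43.9 CPM after treatment.

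Among the 3 PARP genes the transcript of Parp1 was the most abundant per length. Parp1 made up 69.5% and 68.2% of the summed RPKM of Parp1, Parp2 and Parp3 after saline, against 58.8% and 69.8% after treatment. The share of Parp3 was 17.0% and 16.8% after saline and 25.04% and 17.0% after treatment. The first treated library stood apart from the other 3 in both shares, and the second treated library lay close to the saline libraries in each. The summed RPKM of the 3 genes was 34.7 and 33.3 after saline and 32.0 and 31.3 after treatment.

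Parg, the hydrolase that removes poly (ADP-ribose), maps to chromosome 14 from 31923906 to 32019507 (ENSMUSG00000021911). It was at 32.4 and 32.3 CPM after saline and at 34.1 and 30.4 CPM after treatment. The treated values fell on either side of the saline values. Of the 9 genes it had the log2 fold change closest to 0, -0.0029 (95% confidence interval -0.39 to 0.39, adjusted p = 0.994 from edgeR), with a sign that turned to positive under upper-quartile factors, library totals and with protein-coding genes only. Timm23, the gene that starts 51 bases from Parg and encodes a subunit of the mitochondrial import channel, had 50.4 and 47.5 CPM after saline and 50.2 and 47.1 CPM after treatment.

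Xrcc1, the scaffold that brings ligase and polymerase to a single-strand break, is on chromosome 7 from 24245714 to 24272865 (ENSMUSG00000051768). Its level was 29.8 and 27.1 CPM after saline and 29.9 and 31.9 CPM after treatment. Both treated libraries were above both saline libraries, the lower of them by less than the distance between the saline libraries. The log2 fold change was 0.12 (95% confidence interval -0.28 to 0.52, adjusted p = 0.699 from edgeR). Lig3, the nuclear and mitochondrial ligase that XRCC1 holds, is on chromosome 11 from 82671934 to 82695100 (ENSMUSG00000020697). It was at 45.8 and 29.8 CPM after saline, and at 26.4 and 31.6 CPM after treatment. The first saline library stood above the other 3, which lay close together. Lig3 had a log2 fold change of -0.38 (95% confidence interval -0.99 to 0.22, adjusted p = 0.405 from edgeR). That value rests on 1 library, since it was -0.06 without the first saline library and -0.68 without the second. Lig3 shares 1826 bases with Rffl on the other strand, which had 15.7 to 20.9 CPM in the 4 libraries. Xrcc1 and Lig3 proteins work as a pair, while their transcripts had log2 fold changes of opposite sign, neither past the test.

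Polb, the gap-filling polymerase of base excision repair, is on chromosome 8 from 23118142 to 23143451 (ENSMUSG00000031536). Its level was 17.0 and 16.1 CPM after saline (16.5 ± 0.646 CPM, SD, n = 2) and 29.6 and 22.6 CPM after treatment (26.1 ± 5.01 CPM, SD, n = 2). Every treated value was above every saline value, and the gap between the groups, from 17.0 to 22.6 CPM, was larger than the distance between the saline libraries and smaller than that between the treated libraries. The level after treatment was 1.58 times that after saline, a log2 fold change of 0.66 (standard error 0.21, 95% confidence interval 0.14 to 1.18, unadjusted p = 0.0209 and adjusted p = 0.178 from edgeR). Of all tested genes 11.7% had a smaller p. Over the 15 alternatives to this fit the log2 fold change stayed between 0.45 and 0.82, and in those with a test the adjusted p stayed between 0.0629 and 0.543. It was smallest, at 0.45, without the first treated library. Polb no longer had an unadjusted p under 0.05 without that library, nor without the second saline library, where the log2 fold change was 0.60. No other gene of the table overlapped Polb, and no opposite-strand gene started within 200 bases of it. Polb was highest in the first treated library. Its order of the 4 libraries was also that of the summed alveolar type 2, alveolar type 1 and airway markers given above. Single markers did not all keep that order, with Abca3 highest in the first saline library and Bpifa1 in the second treated library. Of all tested genes, 27.4% had both treated libraries above both saline libraries. The part of these cell types in the Polb value was not tested.

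Apex1, the endonuclease that cuts at sites left without a base, is on chromosome 14 from 51162425 to 51164596 (ENSMUSG00000035960). Saline libraries were at 24.1 and 23.4 CPM and treated libraries at 19.3 and 25.9 CPM. The treated libraries lay on both sides of the saline pair. The log2 fold change was -0.07 (95% confidence interval -0.58 to 0.44, adjusted p = 0.867 from edgeR), turning to 0.03 under upper-quartile factors and to 0.12 without the first treated library. Of the span of Apex1, 1072 bases are shared with Pip4p1 on the other strand, which had 38.6 to 51.2 CPM. Tdp1, which frees DNA ends from topoisomerase I, is on chromosome 12 from 99850776 to 99921478 (ENSMUSG00000021177). It had 26.6 and 22.8 CPM after saline and 24.3 and 25.5 CPM after treatment, both treated values between the saline values. Tdp1 had a log2 fold change of 0.01 (95% confidence interval -0.42 to 0.45, adjusted p = 0.979 from edgeR).

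**Figure D2:**
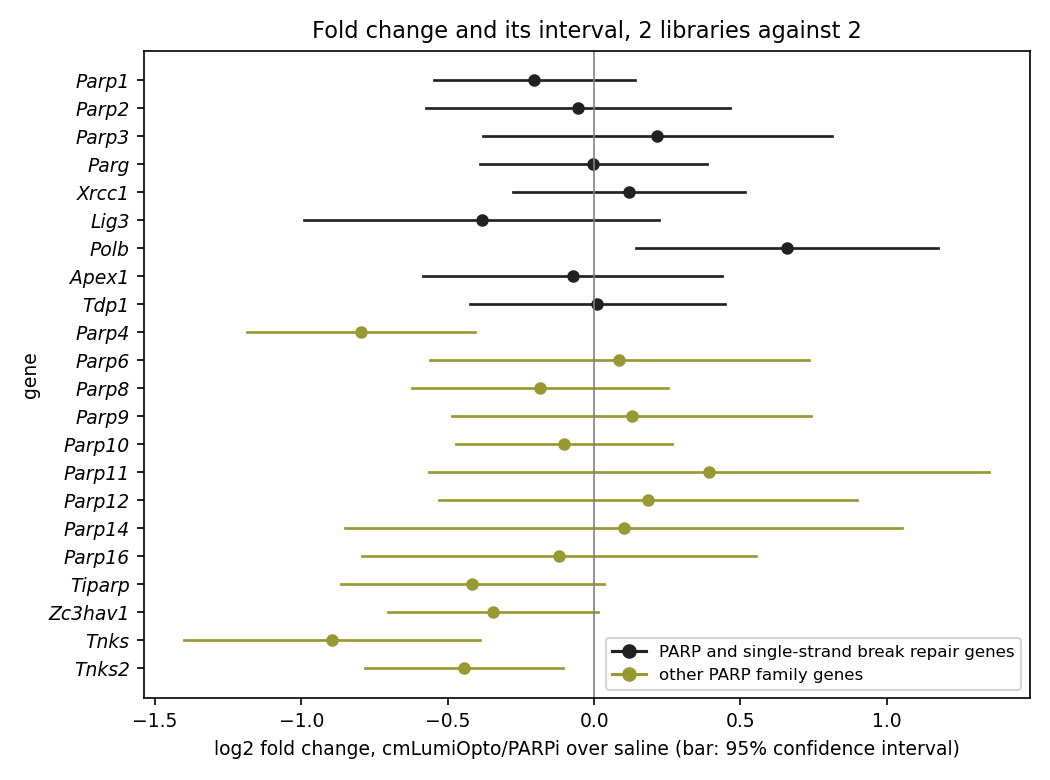
Log2 fold change of cmLumiOpto/PARPi over saline for the 9 genes (black) and 13 other PARP family genes (olive), as a point with its 95% confidence interval from edgeR's quasi-likelihood fit on 2 libraries against 2. Among the 9 genes the interval of Polb, 0.14 to 1.18, is the one that leaves out 0, and among the other PARP genes those of Parp4, Tnks and Tnks2 do.

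Compared per length, the 9 genes fell into an abundant pair and a lower group. In the saline libraries Parp1 had 23.4 ± 0.998 RPKM (SD, n = 2) and Apex1 16.7 ± 0.318 RPKM (SD, n = 2), with no overlap between them or with the next gene. Parp3, Parg, Lig3, Xrcc1 and Parp2 followed at 5.74 down to 4.84 RPKM, and each neighbouring pair in that run overlapped in range. Polb (4.20 ± 0.164 RPKM, SD, n = 2) and Tdp1 (3.09 ± 0.339 RPKM, SD, n = 2) were the lowest, each apart from its neighbour. After treatment the order again began with Parp1 (20.3 ± 2.12 RPKM, SD, n = 2) and Apex1 (15.9 ± 3.25 RPKM, SD, n = 2) and ended with Tdp1 (3.11 ± 0.102 RPKM, SD, n = 2). Polb then followed Parp3, at 6.63 ± 1.27 RPKM (SD, n = 2), in a run from Parp3 to Lig3 in which all neighbours overlapped.

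The other PARP family genes, none of which belongs to the 9, numbered 13, all tested. Of these, 3 had an unadjusted p under 0.05 and a lower level (12.0% of all tested genes did), and 0 had one and a higher level (9.21% of all). Their median log2 fold change was -0.12, and the count with a lower level was 2 to 4 when 1 library was left out. Without the second treated library 1 had a higher level. Parp4, the PARP of the vault particle, had 49.8 and 55.7 CPM after saline and 28.4 and 32.4 CPM after treatment, a log2 fold change of -0.80 (adjusted p = 0.138 from edgeR). Tnks, a tankyrase that marks axin and telomere proteins, had 124 and 166 CPM after saline and 68.2 and 87.4 CPM after treatment (log2 fold change -0.89, adjusted p = 0.138 from edgeR). The related tankyrase Tnks2 had 402 and 414 CPM after saline and 309 and 291 CPM after treatment (log2 fold change -0.44, adjusted p = 0.175 from edgeR). Both treated libraries were below both saline libraries in all 3, as in 27.8% of all tested genes. The 3 were named for a low p and a lower level, which favours such a separation. Tnks and Tnks2 are long (14888 and 10406 bases), and after a correction for length and mean level their log2 fold changes were -0.42 and 0.04, while that of Parp4 was -0.64. The other 10 had log2 fold changes from -0.42 (Tiparp) to 0.39 (Parp11). Parp14 was at 109 and 71.9 CPM after saline and 133 and 61.8 CPM after treatment (log2 fold change 0.10, adjusted p = 0.902 from edgeR).

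DNA glycosylases, the enzymes that open base excision repair, numbered 11. Of these, 1 had an unadjusted p under 0.05 and a higher level (9.21% of all tested genes did), and 0 a lower one (12.0% of all). The median log2 fold change was -0.03. Neil1, which removes oxidized pyrimidines, had 4.08 and 4.02 CPM after saline and 8.46 and 6.02 CPM after treatment, a log2 fold change of 0.84 (adjusted p = 0.228 from edgeR). Ogg1, the glycosylase for oxidized guanine, had 12.4 and 11.2 CPM after saline and 10.2 and 12.6 CPM after treatment. That 1 call was lost without either saline library, without the first treated library and with DESeq2. Without the first saline library, without the second treated library and with no filter on low counts, 1 glycosylase had an unadjusted p under 0.05 and a lower level. The rest of the 11 gave log2 fold changes from -0.69 (Tdg) to 0.19 (Mbd4).

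Other enzymes of base excision and single-strand break repair numbered 12. At an unadjusted p under 0.05, 0 were higher (9.21% of all tested genes) and 1 was lower (12.0% of all). This was Pole, the catalytic subunit of the leading-strand polymerase, at 68.2 and 55.2 CPM after saline and 32.9 and 41.1 CPM after treatment (log2 fold change -0.74, adjusted p = 0.145 from edgeR). Pole is 11160 bases long, and after the correction for length and mean level its log2 fold change was -0.41. Top1, whose trapped form TDP1 removes, had 99.1 and 98.9 CPM after saline and 101 and 91.0 CPM after treatment. Lig1, the replicative ligase that can stand in for Lig3, had 112 and 103 CPM after saline and 94.2 and 110.1 CPM after treatment. The list's median log2 fold change was -0.07.

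Genes that serve the ADP-ribose signal, from its cofactor to its erasers, had a median log2 fold change of 0.16. Of the 11, 0 had an unadjusted p under 0.05 (21.2% of all tested genes did). With scaling by upper-quartile factors or by library totals, 3 of the 11 had one and a higher level, and 2 did with protein-coding genes only. Hpf1, the factor that completes the active site of PARP1 and PARP2, was at 58.3 and 66.3 CPM after saline and 78.9 and 78.3 CPM after treatment (log2 fold change 0.33, adjusted p = 0.237 from edgeR). Adprs, the hydrolase that removes ADP-ribose from serine, was at 25.02 and 29.2 CPM after saline and 33.0 and 36.1 CPM after treatment (log2 fold change 0.35, adjusted p = 0.292 from edgeR). In both genes the treated libraries lay above the saline libraries, as in 27.4% of all tested genes, and neither passed the test. In NAD synthesis, 7 of 9 listed genes were tested. Of these 1, Naprt, had an unadjusted p under 0.05 and a higher level (9.21% of all tested genes), and 0 a lower one (12.0%). Naprt had 2.38 and 1.77 CPM after saline and 5.35 and 3.67 CPM after treatment (log2 fold change 1.12, adjusted p = 0.215 from edgeR). Naprt, too, no longer had an unadjusted p under 0.05 without either saline library, without the first treated library or with DESeq2. Nampt, the rate-limiting enzyme of NAD salvage, had overlapping groups at 142 and 126 CPM after saline and 148 and 112 CPM after treatment. Nmrk2 was at 0 counts in all 4 libraries, and Qprt at 0.545 CPM or less.

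**Figure D3:**
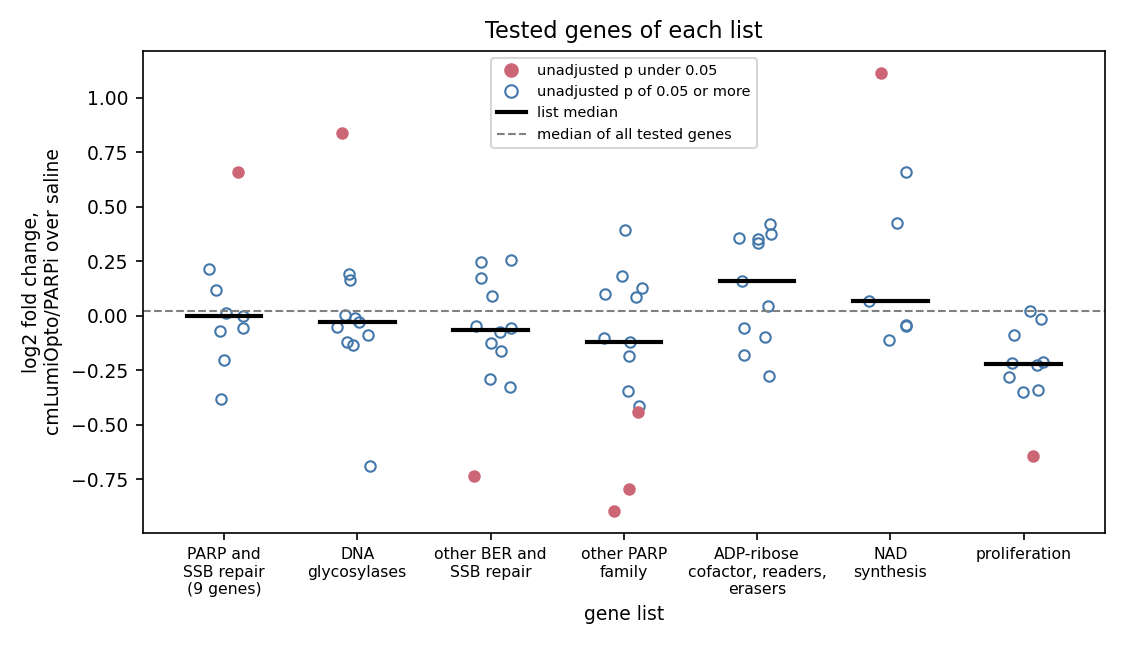
Log2 fold change of each tested gene (points, filled where the unadjusted p is under 0.05) in the 9 PARP and single-strand break repair genes and 6 related lists, with a bar at each list's median and a dashed line at 0.02, the median of all tested genes. The median of the 9 genes is -0.0029, that of the ADP-ribose list 0.16 and that of the proliferation list -0.22.

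Many repair genes are read more in dividing cells, so proliferation genes are given beside them. Of 10 such genes, 1 had an unadjusted p under 0.05 and a lower level (12.0% of all tested genes), and 0 a higher one (9.21%). A log2 fold change below 0 was found in 9 of the 10 (median -0.22), and in 7286 of all 15167. Without the second treated library 4 had an unadjusted p under 0.05 and a lower level. After the correction for length and mean level, 5 of the 10 lay above 0 and 5 below (median -0.05). Mki67, the gene of the Ki67 antigen, had 281 and 302 CPM after saline and 166 and 206 CPM after treatment (log2 fold change -0.65, adjusted p = 0.143 from edgeR, and -0.20 after that correction). Parp1 at -0.20 lay near the median of these genes, and Polb at 0.66 lay above all 10, of which Cdk1 was the highest at 0.02. Whether fewer dividing cells had a part in the Parp1 value was not tested.

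Across all tested genes, log2 fold changes were higher in short genes and lower in long genes (Spearman's rho = -0.37 across genes, which are not independent replicates). The median was 0.31 in the shortest of 5 equal groups by length, which holds Apex1 (1422 bases), and -0.27 in the longest, which holds Lig3 (7284 bases) and Tdp1 (7988 bases). Parp2, Parp3 and Polb were in the middle group, where the median was 0.02, and Parp1, Parg and Xrcc1 in the group above it, where it was -0.09. Against the trend over length and mean level, fitted by loess, the log2 fold change of Parp1 was -0.0040 in place of -0.20, that of Apex1 -0.39 in place of -0.07, and that of Polb 0.59 in place of 0.66. Parp1 thus sat on the trend for genes of its length and level, Apex1 below it and Polb above it. The correction moved the median of the 9 genes from -0.0029 to 0.089, with 5 above 0 and 4 below. It moved the median of the glycosylases to -0.29, that of the other repair enzymes to -0.05, that of the other PARP genes to 0.01, that of the ADP-ribose list to -0.02 and that of NAD synthesis to 0.14, so that the sign turned for the 9 genes, the other PARP genes and the ADP-ribose list. These corrected values carry no test.

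**Figure D4:**
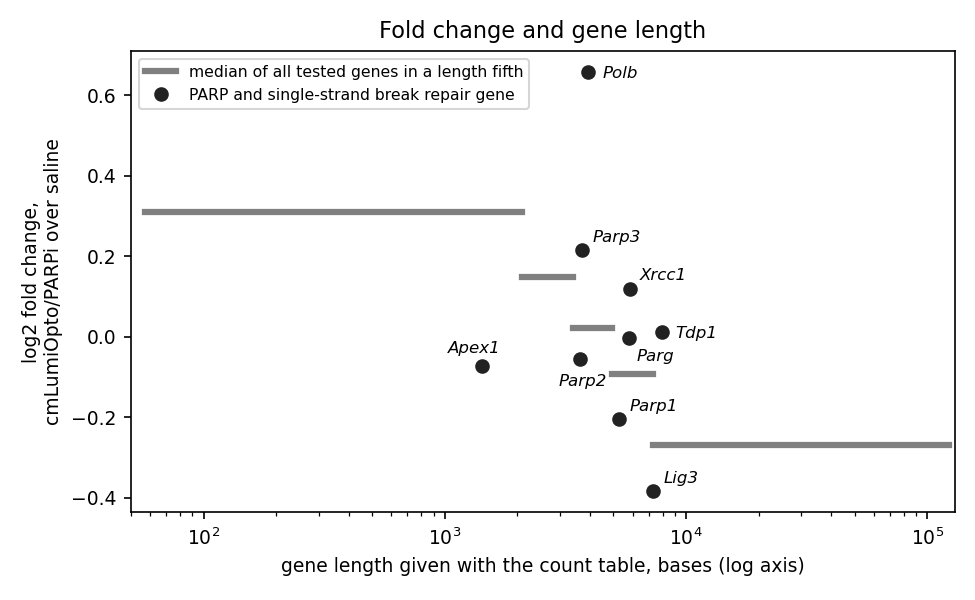
Log2 fold change of cmLumiOpto/PARPi over saline against gene length in bases (log axis) for the 9 genes (points), with grey bars at the median of all tested genes in each of 5 equal length groups. The medians step down from 0.31 to -0.27, Polb at 0.66 stands above the bar of its length group, and Apex1 at -0.07 stands below its own.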

How the data were processed

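RNA was sequenced from 4 libraries, 2 saline and 2 cmLumiOpto/PARPi. Reads were mapped with HISAT2 by the authors, who deposited raw counts, 1 value per gene and library. The counting tool, the HISAT2 version and the use of strand are not given in the sources used here. The study's methods name GRCm38 and the submitters' processing notes mm39. Of 52125 identifiers shared with GENCODE M21 (GRCm38), 2.92% had the same position, so positions of genes are given as in the table, as mm39. Sequences are from GRCm38.p6.

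Counts were tested with edgeR 4.0.16 (TMM, filterByExpr at 10 counts, then glmQLFit with its legacy option and glmQLFTest, Benjamini-Hochberg adjustment over 15167 genes, threshold 0.05). The standard error is the log2 fold change divided by the square root of F, and the interval uses the test's total degrees of freedom at 95%. Log2 CPM used a prior count of 2. The loess span was 0.5. Alternatives were DESeq2 1.42.0, the likelihood ratio test, the fit without the legacy option, other scaling factors, no filter, protein-coding genes only, the replicate block and leaving out each library. The fits were tested on simulated counts.

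The 9 genes and the other lists were chosen with earlier results of these data known. Genes named were the 9 and, of each other list, up to 3 in each direction by smallest p among those with an unadjusted p under 0.05. The PARP family could be named freely, and for Parp1 the 3 genes of most similar pattern. Ogg1, Tdg, Mbd4, Top1, Lig1, Hpf1, Adprs, Nampt, Nmrk2, Qprt, Cdk1 and the genes overlapping or starting beside the 9 were chosen after their values were seen. Adprs is listed under its older symbol Adprhl2 in GENCODE M21. Chi-square per degree of freedom, taken only between the 2 libraries of a group, was 24.1 for saline and 41.1 for treated. The 2 libraries of a group thus differed by more than counting noise, so neither was a repeat deposit of the other. Whether libraries came from separate mice is not shown by this.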

Additional observations from a re-analysis of the deposited data

How the results depend on the processing

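With 2 libraries in each group, the 95% intervals of 8 of the 9 genes spanned 0. The count of the 9 past an adjusted p of 0.05 was 0 under each alternative with a test. Over all tested genes that count was 0 in edgeR's main test, where 3221 had an unadjusted p under 0.05. It was 2000 without the low-count filter, 981 with DESeq2 and 865 with the likelihood ratio test, and 0 to 31 when 1 library was left out. Replicate numbers are shared between groups, and nothing says that they mark shared animals or days. The deviations of same-numbered libraries correlated at a Spearman's rho of 0.298 across genes. With 2 libraries in each group this value is the same for both replicate numbers by construction. Swapping the numbers in 1 group would only turn its sign, so it cannot show whether the libraries are paired. Blocking on replicate number gave 1822 genes (752 higher), with an adjusted p of 0.0629 for Polb. Under it 4639 of all 15167 tested genes had an unadjusted p under 0.05. The count at that p was 5 lower among the other PARP genes, 2 lower among proliferation genes, 1 lower among glycosylases and 2 higher in the ADP-ribose list. The cause of these differences was not tested. The count of the 9 at an unadjusted p under 0.05 was 0 to 1 when 1 library was left out, 0 without the first treated library, and without the second saline library the gene was Lig3 in place of Polb.

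Upper-quartile factors moved the median log2 fold change of all tested genes from 0.02 to 0.13. The sign turned in 5 genes. Under upper-quartile factors Parp2 was 0.051, Parg 0.10 and Apex1 0.033, under library totals Parp2 was 0.015 and Parg 0.064, and with protein-coding genes only Parg was 0.0097. When 1 library was left out, Parp2 lay between -0.22 and 0.075, Parp3 between -0.11 and 0.46, Parg between -0.090 and 0.057, Apex1 between -0.32 and 0.12, and Tdp1 between -0.11 and 0.11. Parp1, Xrcc1, Lig3 and Polb kept their sign under all 15 alternatives.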
